A study of Mus musculus with 34 samples.

Results

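Messenger RNA of the striatum was compared between 6 libraries of male Myt1l heterozygous mice and 6 libraries of male wild-type mice, all of the strain C57BL/6J at postnatal day 56. These 12 libraries were chosen by their region label from the 34 of the study, which also covers prefrontal cortex (PFC) and hippocampus. Of the 18548 genes in the deposited table, the 17054 with a mean of at least 10 over the 12 striatum libraries were tested. The labels name no treatment and do not describe the Myt1l allele. They also do not say that the libraries of a group came from separate animals, so the p-values measure the spread between these libraries, which may in part be technical.

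The striatum is built mainly from inhibitory projection neurons that fall into direct-pathway cells, which carry the dopamine receptor Drd1 and the peptide genes Tac1 and Pdyn, and indirect-pathway cells, which carry Drd2, the adenosine receptor Adora2a and the peptide gene Penk. Both types read dopamine through cyclic AMP and the phosphatase inhibitor DARPP-32, the product of Ppp1r1b. Myt1l encodes a zinc-finger transcription factor that is made in neurons and is known chiefly as a repressor of non-neuronal genes, and Myt1 and St18 are its paralogs.

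Values are normalized counts, that is, estimated read counts that the authors divided by a factor per library. They summed to 25786041 to 27313394 per library, and the steps between low values gave an estimate of 25309000 to 30383000 reads per library. Differences are heterozygote minus wild type on the scale log2(value + 1), which understates the change of low genes, each with its standard error (SE) from limma and 6 libraries per group. A gene passed when its limma p, adjusted over the 17054 genes by the method of Benjamini and Hochberg, was at most 0.05.

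The libraries carried the striatal label in their genes. Ppp1r1b had a median of 18071 over the striatum libraries against 2512 in PFC and 1335 in hippocampus, Drd1 3293 against 279 and 118, and Drd2 2658 against 67.1 and 58.5. Penk stood at 14796 against 981 and 461.

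**Figure D1:**
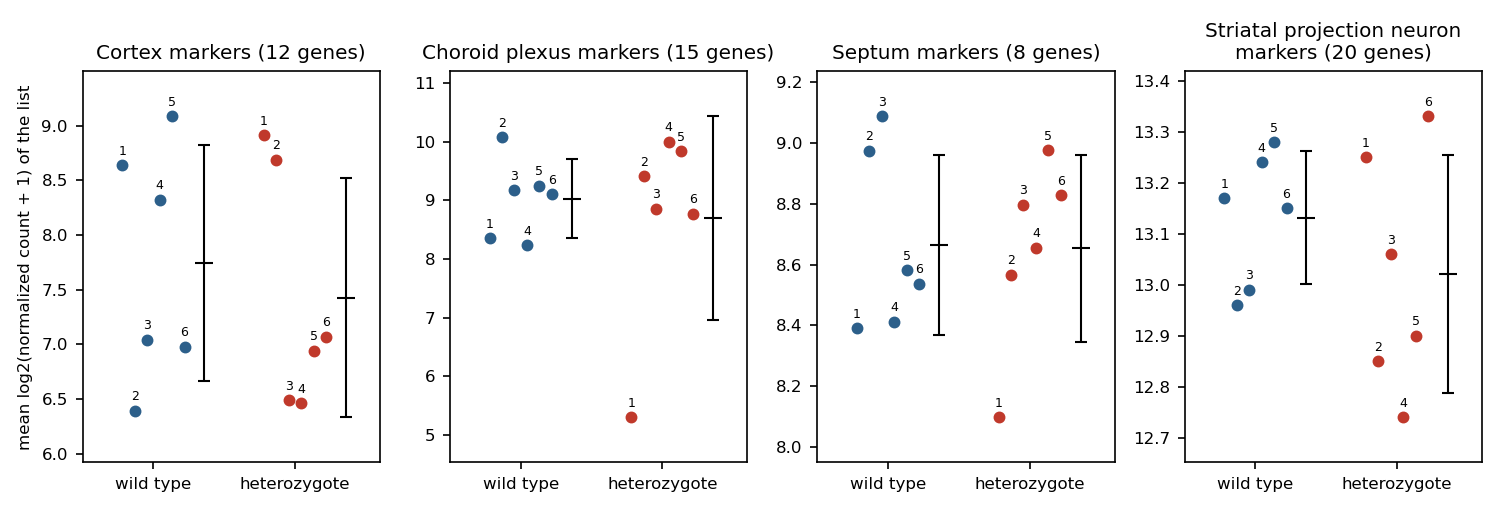
Mean log2(normalized count + 1) of 4 marker lists in each striatum library, by genotype, with points numbered by replicate and bars for mean ± SD (n = 6 libraries per group). Heterozygote replicates 1 and 2 and wild-type replicates 1, 4 and 5 lie above 8 in the cortex list, and heterozygote replicate 1 lies at 5.302 in the choroid plexus list, below the other 11 libraries.

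Markers of tissue next to the striatum differed widely between the libraries. Slc17a7, the vesicular glutamate transporter of cortical projection neurons, ranged from 337 to 8530 in striatum, while its PFC median was 37947. As a percentage of the PFC wild-type level, it stood at 20.5, 15.5, 1.34, 0.884, 2.14 and 3.11 in heterozygote replicates 1 to 6, and at 16.5, 1.07, 1.70, 13.9, 22.4 and 2.32 in wild-type replicates 1 to 6. The 5 libraries with over 13% were heterozygote replicates 1 and 2 and wild-type replicates 1, 4 and 5, so both genotypes held such libraries. The median difference of the 12 cortex and claustrum markers was -0.32, against a median of -0.0038 over all genes, and 11 of the 12 lay below 0. Without the 5 libraries, a subset chosen after seeing the data, that median was -0.07, and with the cortex level as a covariate it was 0.03. The covariate was the mean level of these same 12 markers, which fixed their median near 0 in advance. The 5 libraries were those above the average of that level, so neither value is an independent check.

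Choroid plexus, the epithelium of the ventricles that secretes transthyretin (Ttr), separated 1 library from the rest. Ttr ranged from 20131 to 81544 in 11 libraries and stood at 539 in heterozygote replicate 1. The 15 choroid plexus markers had a median difference of -0.33, which was 0.32 without that library and 0.18 without both libraries whose column code begins with 31, that library and wild-type replicate 1. Septum markers were lowest in heterozygote replicate 1 and wild-type replicates 1 and 4, with a list median of -0.01, 0.09 without heterozygote replicate 1 and 0.0144 without both libraries whose code begins with 31. The part of these tissues in any gene difference below was not tested. In the lists below, a range after a median gives its lowest and highest value when each of the 12 libraries was left out in turn.

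Column codes and a histone gene pair set a few libraries apart in another way. The code 31-67M marks heterozygote replicate 1 of striatum and of hippocampus but a wild-type library of PFC, and the labels were followed. Hist2h2aa1 stood at 9.73 in striatum heterozygote replicate 1 and at 208 to 292 in the other 5 heterozygotes, and at 213 in wild-type replicate 1 and 23.1 to 93.8 in the other 5 wild types. Thus the library labelled heterozygote 1 lay below every wild-type library, and the library labelled wild type 1 lay within the heterozygote range. The near-identical copy Hist2h2aa2 was listed at 0 in 4 heterozygote libraries and reached 202 in replicate 1, against 84.6 to 248 in wild type. The sum of both copies was 266 ± 59.4 (SD, n = 6) against 274 ± 15.7 (SD, n = 6), so the assignment of reads between the copies is uncertain. Both libraries that go against their group carry codes beginning with 31, and values without these 2 libraries, the only ones of code 31 in striatum, are given for most genes whose ranges are printed and for the list medians that change direction without them. The other 10 carry codes beginning with 35 (8 libraries) or 37 (2 libraries). In other regions, code 31-67M had Hist2h2aa1 and Hist2h2aa2 at 96.1 and 214 (hippocampus heterozygote replicate 1) and at 32.7 and 142 (PFC wild-type replicate 6). Code 31-510M had 56.1 and 312 in hippocampus wild-type replicate 1. The other hippocampus heterozygotes had 230 to 358 and 0. In PFC, heterozygote replicates 1 and 4 were also low in Hist2h2aa1, at 32.9 and 58.8. Whether a label is wrong was not tested.

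Myt1l itself did not differ detectably. Myt1l ranged from 7064 to 9505 (median 7984) in heterozygotes and from 6923 to 8275 (median 7740) in wild type, and the ranges overlapped, with 3 of 6 heterozygotes above the wild-type mean. The log2 difference of Myt1l was 0.08 (SE 0.07), with a 95% interval from -0.07 to 0.24 (limma adjusted p = 0.915), and it was 0.05 without the libraries of code 31. The library labelled heterozygote 1 had the highest level. Whether fewer transcripts per cell or a changed number of neurons lie behind such a level cannot be told apart in bulk tissue, here or for any gene below.

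No gene passed the threshold in striatum. Limma called 0 of 17054 genes (percent called 0), with a smallest adjusted p of 0.441, and 1004 genes (5.89%) had an unadjusted p under 0.05, of which 480 (2.81%) were higher and 524 (3.07%) lower in heterozygotes. Of all genes tested, 8258 (48.4%) lay above 0 and 8796 (51.6%) below. In 68 genes (0.399%) the 6 heterozygote values lay wholly outside the range of the 6 wild-type values, 24 (0.141%) higher and 44 (0.258%) lower. Without the code 31 libraries, with 5 against 5, the ranges were apart in 236 genes (1.38%). Fewer libraries can only keep or add separate ranges, so this larger count is no sign of a larger difference.

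**Figure D2:**
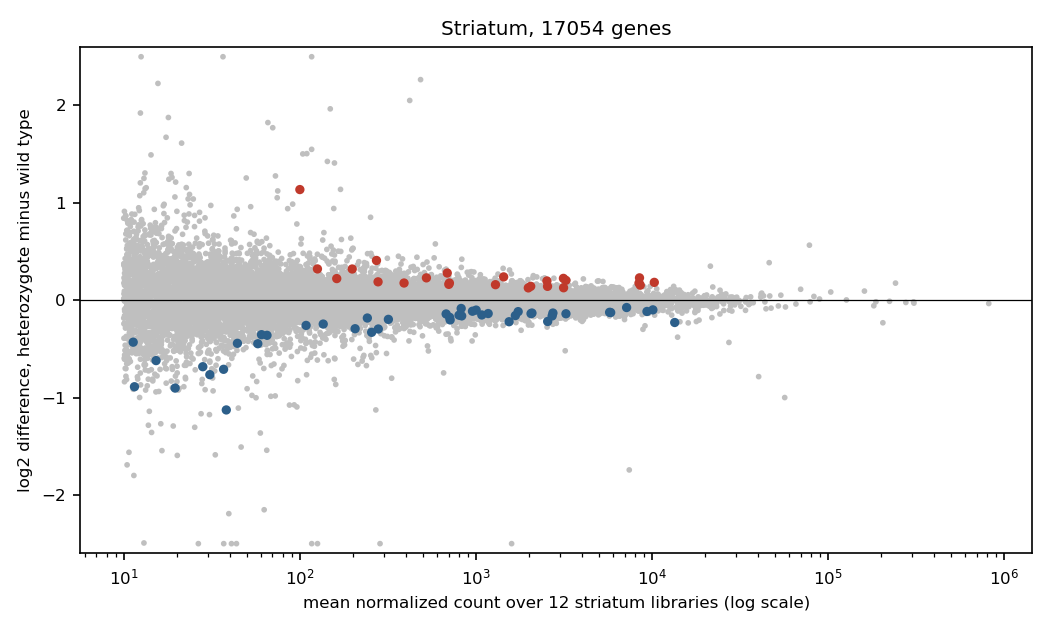
Log2 difference (heterozygote minus wild type) of the 17054 genes tested against their mean normalized count over the 12 striatum libraries (log axis), with red points for the 24 genes whose heterozygote values all lie above wild type and blue points for the 44 whose values all lie below; 11 genes beyond 2.5 are drawn at that limit. The spread narrows from low to high genes, and no point passed the adjusted threshold.

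The size of difference that could have been seen depended on level. The 95% interval reached a median of 0.1955 to either side over all genes, 0.5412 for means from 10 to 100, 0.1979 from 100 to 1000 and 0.1167 at 1000 and above. For 92.86% of genes the whole interval lay within 1 of 0, and for 73.85% within 0.5. Estimates were small, with 88.54% of genes within 0.25 of 0 and 96.95% within 0.5. Of the 520 genes at 0.5 or more, 456 had a mean under 100 and 6 a mean of at least 1000.

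The gene with the smallest p was Ppp6c, the catalytic subunit of protein phosphatase 6, lower in heterozygotes. Ppp6c ranged from 1391 to 1499 (median 1418) in heterozygotes and from 1610 to 1743 (median 1663) in wild type, so that every heterozygote lay under every wild type. The log2 difference of Ppp6c was -0.22 (SE 0.04); limma adjusted p = 0.441. Without the code 31 libraries it was -0.209. The list of Ppp6c and 19 other genes, subunits and regulators of protein phosphatases 6 and 2A with Ppp4c, had a median of -0.03, range -0.06 to -0.00192. In it 4 lay above 0 and 16 below. Ankrd44 went the other way from Ppp6c, at 0.118 to 0.194 over the settings tried. It was the 1 member with an unadjusted p under 0.05 on the higher side (2.81% of all genes).

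Nrtn, which encodes the survival factor neurturin, followed. Nrtn ranged from 15.2 to 34.7 (median 22.3) in heterozygotes and from 39.6 to 65 (median 55.6) in wild type, again with no overlap, at a low level. It differed by -1.13 (SE 0.21) on the log2 scale, the lowest estimate among the 10 lower genes with the smallest p, and -1.11 without the code 31 libraries; it did not pass (limma adjusted p = 0.441). Gfra4, a receptor of the same ligand family, was also lower by value at -0.16, with 1 of 6 heterozygotes above the wild-type mean.

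Nptn, the cell adhesion protein neuroplastin that also chaperones plasma membrane calcium pumps, was also lower. Nptn ranged from 11675 to 13095 (median 12278) in heterozygotes and from 13365 to 16294 (median 14300) in wild type, without overlap. In log2 units the estimate was -0.23 (SE 0.05; -0.251 without the code 31 libraries); limma adjusted p = 0.522. Atp13a3, a polyamine transporter, and Slc35f1 separated the groups in the same direction at -0.22 and -0.16. Sco2, a copper chaperone for cytochrome oxidase, did so at -0.29, and H2-Aa, a class II antigen presentation gene, at -0.76.

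On the higher side, Snrnp70, a protein of the U1 particle that marks the start of introns, had the smallest p. Snrnp70 ranged from 8821 to 10009 (median 9118) in heterozygotes and from 7361 to 8410 (median 7779) in wild type, with no overlap and heterozygote replicate 6 well above the others. On the log2 scale it was higher by 0.23 (SE 0.04; 0.235 without the code 31 libraries); limma adjusted p = 0.441. Rpl14-ps1, a ribosomal protein pseudogene 50.8 kilobases from Snrnp70 on chromosome 7, was listed at 0 in all 6 wild-type libraries and at 168, 0, 116, 334, 171 and 614 in heterozygote replicates 1 to 6. Reads of such a pseudogene can belong to its parent gene, so its level is uncertain, and against a group at 0 no fold is given.

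Ppox, which acts late in heme synthesis, also separated the groups. Ppox ranged from 675 to 821 (median 763) in heterozygotes and from 600 to 666 (median 616) in wild type. Its log2 difference was 0.28 (SE 0.06; 0.303 without the code 31 libraries); limma adjusted p = 0.522. Alas1, which begins heme synthesis, lay at 0.15 with overlap, and the 8 heme genes listed were split, 4 above and 4 below 0 (median -0.01, range -0.02 to 0.02; 0.0332 without the code 31 libraries). Other genes with wholly separate ranges and higher values were Ccdc33 at 1.14, Aif1l at 0.41 and the centriole genes Cep152 at 0.32 and Sass6 at 0.32.

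The upstream sequences of 1 gene on each side, Nrtn and Snrnp70, are shown, because Myt1l and its paralogs bind the core AAGTT. On the lower side Ppp6c had a smaller p than Nrtn, and its window, with 0 cores, is not shown. They are the 250 bases before the start of transcription in RefSeq, GRCm38.p6, read in the direction of the gene, in lower case with the letters AAGTT or, for the opposite strand, AACTT in capitals. Nrtn lies at chr17:56757549-56757798 on the minus strand and Snrnp70 at chr7:45395743-45395992 on the minus strand.
Nrtn: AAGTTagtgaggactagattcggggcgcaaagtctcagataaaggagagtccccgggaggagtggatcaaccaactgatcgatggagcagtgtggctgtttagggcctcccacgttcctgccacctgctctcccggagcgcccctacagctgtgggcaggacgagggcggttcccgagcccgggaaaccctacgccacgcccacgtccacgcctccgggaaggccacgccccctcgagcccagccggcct
Snrnp70: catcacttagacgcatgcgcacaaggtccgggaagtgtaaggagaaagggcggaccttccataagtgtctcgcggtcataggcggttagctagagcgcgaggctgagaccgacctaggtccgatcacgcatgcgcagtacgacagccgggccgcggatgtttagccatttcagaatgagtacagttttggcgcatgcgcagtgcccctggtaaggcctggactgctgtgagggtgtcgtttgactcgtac
The core occurred 1 time in the Nrtn window, at its far end, and 0 times in that of Snrnp70. It was in 11605 of 32841 promoters of this length (35.3%) and in 4522 of the 15728 belonging to tested genes (28.8%). Of the 9 genes with the smallest p, 8 were matched to a promoter, and apart from Nrtn the core was in none of the windows of Ppp6c, Firre, Ppox, Nptn, Ccdc130 and Leng8. The paralog Myt1, whose values are given further on, had 1 core in each of its 3 windows. No match says only that these letters are not in the window.

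Long RNAs that stay in the nucleus were higher by value as a group. The list held transcripts kept at speckles and paraspeckles and messages with detained introns, and all 16 of its members that were tested (17 listed) lay above 0, against 48.4% of all genes, with a median of 0.13. This list, like the others, was chosen with earlier results of these data known. Its counts and library means therefore describe the chosen members and are no test of the group. Of the 16, 11 had an unadjusted p under 0.05, all higher (2.81% of all genes). Wholly separate ranges were found in 4, all higher (0.141% of all genes), and 0 passed the adjusted threshold. The mean log2 level of the list was 13.05, 13.08, 13.06, 13.04, 13.03 and 13.14 in heterozygote replicates 1 to 6. In wild-type replicates 1 to 6 it was 12.95, 12.92, 12.95, 12.90, 12.89 and 12.93. Every heterozygote library stood above every wild-type library in this mean, including the library labelled heterozygote 1. Over the settings tried the list median ranged from 0.11 to 0.15, and it was 0.145 without the code 31 libraries and 0.144 without the 5 libraries high in cortex markers.

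Malat1, the abundant noncoding RNA of nuclear speckles, had the largest estimate of the group. Malat1 ranged from 43070 to 63246 (median 50852) in heterozygotes and from 36012 to 47647 (median 39292) in wild type. It stood 0.39 higher (SE 0.10; 0.382 without the code 31 libraries) on the log2 scale, and all 6 heterozygotes exceeded the wild-type mean although the ranges overlapped. Neat1, which scaffolds paraspeckles, lay at 0.23, and Firre, a noncoding RNA of the X chromosome that tethers chromatin, at 0.22. Firre ranged from 3230 to 3561 (median 3383) in heterozygotes and from 2610 to 3047 (median 2946) in wild type, with no overlap, and its difference was 0.248 without the code 31 libraries.

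Leng8 and Rsrp1, whose messages hold detained introns, and the cyclin Ccnl2 separated the groups as well. Leng8 ranged from 10431 to 11659 (median 10814) in heterozygotes and from 9384 to 10283 (median 9603) in wild type. Leng8 was higher by 0.18 (SE 0.04; 0.184 without the code 31 libraries). Rsrp1 stood at 0.15 and Ccnl2 at 0.13. Among the members with overlap were Pnisr at 0.16, the kinase Clk4, which phosphorylates splicing factors, at 0.12, and the sugar transferase Ogt, known for an intron that is detained when glycosylation is high, at 0.14. The neuronal noncoding RNAs Snhg11 and Meg3 had 0.11 and 0.09.

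**Figure D3:**
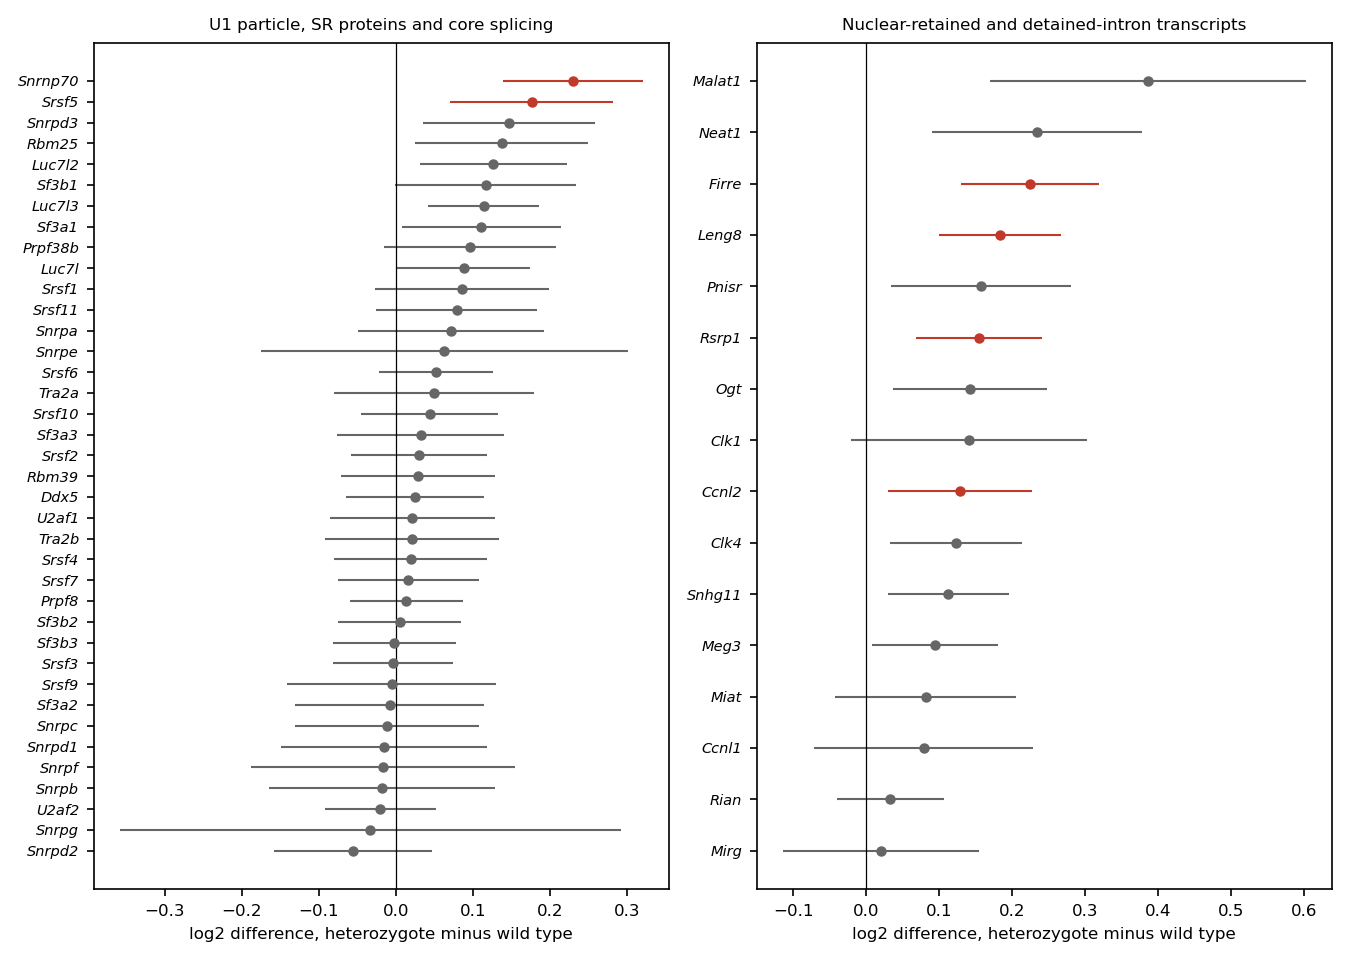
Log2 difference (heterozygote minus wild type) with its 95% interval from limma for each tested member of the nuclear-retained list and of the splicing list, 6 libraries per group, with red where the ranges of the 2 groups do not overlap. All 16 nuclear-retained members lie above 0, and 27 of the 38 splicing members do.

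Splicing proteins leaned the same way by smaller amounts. Of the 38 listed proteins of the U1 particle, the SR family and the core spliceosome, 27 lay above 0 (median 0.03, range 0.01 to 0.05), against 48.4% of all genes. An unadjusted p under 0.05 was found in 8, all higher, against 2.81% of all genes. Snrnp70 and Srsf5, an SR protein, were the 2 with separate ranges, which 0.141% of all genes had on the higher side. Srsf5 ranged from 8210 to 10369 (median 8802) in heterozygotes and from 7810 to 8040 (median 7926) in wild type, and the log2 difference was 0.18 (SE 0.05), and 0.204 without the code 31 libraries. The U1-associated genes Luc7l2, Luc7l3 and Luc7l lay at 0.13, 0.11 and 0.09, the core protein Snrpd3 at 0.15, and Rbm25 and Sf3a1 at 0.14 and 0.11. Heterozygote replicate 6 had the highest mean log2 level of this list, 11.28, against 11.18 to 11.19 in the other heterozygotes and 11.12 to 11.18 in wild type. RNA quality and the share of nuclear RNA per library are not in the labels, and their part in these values was not tested.

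The same lists were compared with the other regions in a model of all 34 libraries. All codes of the striatum libraries recur on libraries of the other regions, and 31-67M has opposite genotypes in PFC and striatum. If a code marks an animal, which the labels do not say, values in the other regions are not independent of those in striatum. The nuclear-retained list had a median of 0.0861 in PFC, with 13 above and 3 below 0, and 0.0915 in hippocampus, with 14 and 2. The splicing list had a median of 0.0449 in PFC, with 30 above and 8 below 0, and 0.0392 in hippocampus, with 27 and 11. No member of either list differed between striatum and these regions at the adjusted threshold. Malat1 was at 0.195 (SE 0.11) in PFC and 0.10 (SE 0.11) in hippocampus, and its striatum effect was larger by 0.19 and 0.29 with unadjusted p of 0.212 and 0.0644 (limma adjusted p = 0.999 and 1).

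Over all genes, the genotype effect differed between striatum and PFC in 0 of 17051 genes, with 612 (3.59%) at an unadjusted p under 0.05 in limma. It differed between striatum and hippocampus in 0 genes, with 629 (3.69%). The smallest p against PFC belonged to Ogg1, a DNA glycosylase that removes oxidised guanine, at 0.32 in striatum and -0.59 in PFC (difference 0.91, SE 0.20; limma adjusted p = 0.654). The smallest against hippocampus was that of Npr1, a natriuretic peptide receptor, at 0.31 and -0.56 (difference 0.87, SE 0.19; limma adjusted p = 1.00).

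The paralogs of Myt1l were both higher by value. Myt1 ranged from 621 to 682 (median 645) in heterozygotes and from 462 to 693 (median 542) in wild type, with all 6 heterozygotes above the wild-type mean. Its estimate was 0.24 (SE 0.08; 0.257 without the code 31 libraries); limma adjusted p = 0.753. St18 ranged from 344 to 618 (median 533) in heterozygotes and from 357 to 470 (median 406) in wild type, and the log2 difference was 0.32 (SE 0.13), and 0.394 without the code 31 libraries; limma adjusted p = 0.807. St18 lay at -0.18 in PFC, and the difference of 0.495 between these regions did not pass (unadjusted p = 0.101; limma adjusted p = 0.999). Of the 26 listed repressor partners of Myt1l and Notch genes, 15 lay above 0 (median 0.02, range 0.00214 to 0.02). The corepressor Sin3a at -0.18 and the Notch target Hey1 at -0.14 were the 2 with an unadjusted p under 0.05 (3.07% of all genes on the lower side).

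**Figure D4:**
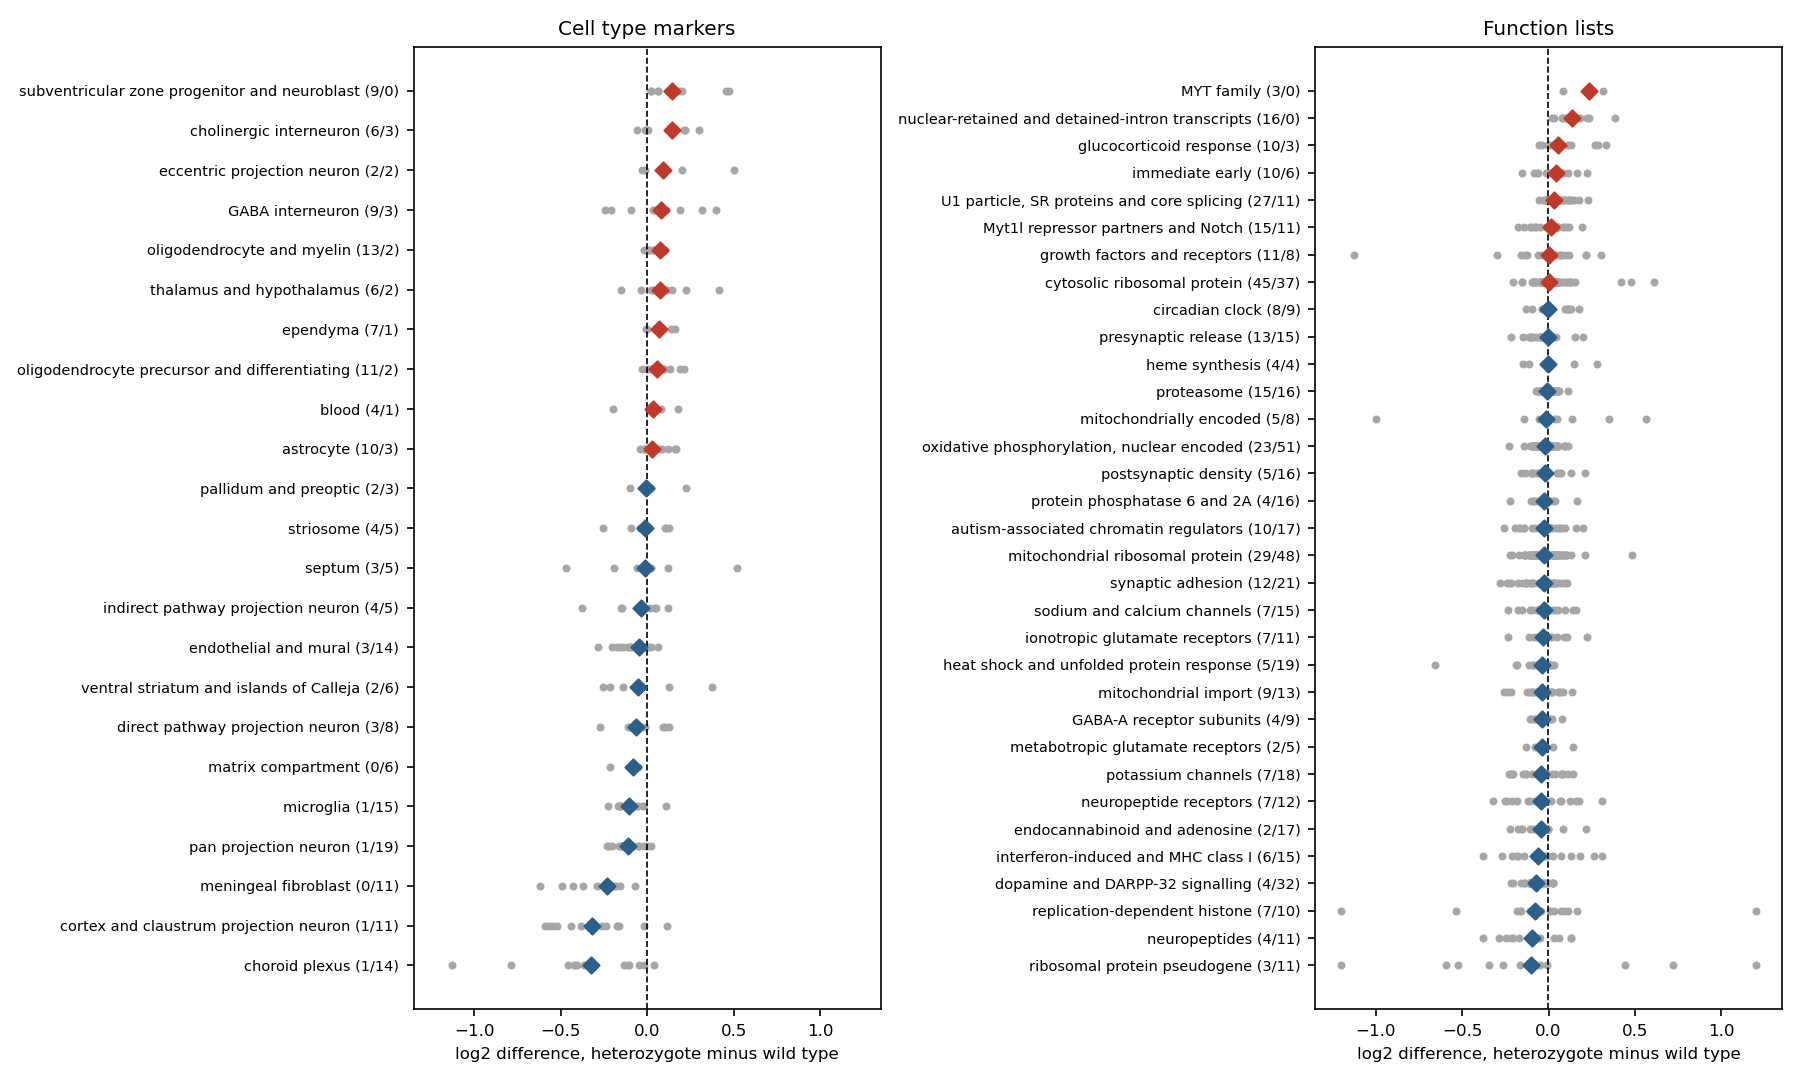
Median log2 difference (diamonds) and single members (dots) for the cell type and function lists in striatum, with the numbers of members above and below 0 and a dashed line at the median of all genes; Hist2h2aa1, Hist2h2aa2, Rpl14-ps1 and Rps6-ps4 lie beyond 1.2 and are drawn at that limit. The nuclear-retained, subventricular and MYT family lists have all members above 0, and the meningeal and matrix lists all below.

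Genes of striatal projection neurons leaned lower by value. Of 20 markers shared by both projection types, 19 lay below 0 (median -0.11, range -0.17 to -0.07), against 51.6% of all genes below 0, and 1 of them had an unadjusted p under 0.05 (3.07% of all genes on the lower side). That gene was Ppp1r1b. Ppp1r1b ranged from 14569 to 19532 (median 15869) in heterozygotes and from 16779 to 21135 (median 19692) in wild type. The log2 difference of Ppp1r1b was -0.22 (SE 0.09), and -0.256 without the code 31 libraries; limma adjusted p = 0.803. The phosphodiesterase Pde10a, which breaks down cyclic nucleotides in these cells, lay at -0.20, the sodium channel subunit Scn4b at -0.23 and the transcription factor Foxp1 at -0.16.

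The list mean varied as much within genotypes as between them. It was 13.25, 12.85, 13.06, 12.74, 12.90 and 13.33 in heterozygote replicates 1 to 6 and 13.17, 12.96, 12.99, 13.24, 13.28 and 13.15 in wild-type replicates 1 to 6. Heterozygote replicate 6 was the highest of all and heterozygote replicate 4 the lowest. The median of the list was -0.23 among the code 35 libraries and -0.04 without the 5 libraries high in cortex markers. The same genes had medians of 0.01 in PFC and 0.000652 in hippocampus.

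Markers of both pathways had medians slightly below 0. Of 11 direct pathway markers 8 lay below 0 (median -0.06, range -0.08 to -0.01), and of 9 indirect pathway markers 5 did (median -0.04, range -0.08 to 0.03, above 0 without heterozygote replicate 2). Among the code 35 libraries the medians were -0.136 and -0.206. Drd1 ranged from 2758 to 4763 (median 3054) in heterozygotes and from 2921 to 4011 (median 3475) in wild type, and the log2 difference was -0.06 (SE 0.13). Drd2 lay at -0.14 and Adora2a at -0.15. The ratio of Drd1 to Drd2 was 1.37 ± 0.121 in the 6 heterozygotes and 1.30 ± 0.123 in the 6 wild types (SD). Striosome markers had 4 above and 5 below 0 (median -0.01, range -0.04 to 0.06), with the mu opioid receptor Oprm1 at -0.25, and all 6 matrix markers lay below 0 (median -0.08, range -0.13 to -0.07), with Calb1 at -0.08.

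Penk, which encodes the enkephalin precursor, was the peptide gene with the smallest p. Penk ranged from 9606 to 15124 (median 11648) in heterozygotes and from 14087 to 17544 (median 15738) in wild type. The log2 difference of Penk was -0.38 (SE 0.10); limma adjusted p = 0.716. All 6 heterozygotes lay below the wild-type mean, and the ranges overlapped. The difference was -0.44 without the code 31 libraries and -0.31 without the 5 libraries high in cortex markers. Tac1 and Pdyn, the peptide genes of the direct pathway, lay at -0.11 and 0.13, with overlap.

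The balance of these peptide messages within a library is given as a description, since the ratios were chosen after the gene values were seen. Pdyn over Penk was 0.185, 0.160, 0.174, 0.167, 0.184 and 0.177 in heterozygote replicates 1 to 6. In wild-type replicates 1 to 6 it was 0.122, 0.113, 0.148, 0.107, 0.128 and 0.121. All 6 heterozygotes lay above all 6 wild types, by 0.51 on the log2 scale, and by 0.47 among the code 35 libraries and without the 5 libraries high in cortex markers. Tac1 over Penk was 0.230 ± 0.0118 (SD, n = 6) against 0.191 ± 0.0166 (SD, n = 6), with overlap through wild-type replicate 1 at 0.222, a code 31 library; without the 2 code 31 libraries the ranges were apart, at a log2 difference of 0.316 against 0.268. These are ratios of normalized counts, not adjusted for transcript length, so they compare libraries and not the abundance of the peptides.

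**Figure D5:**
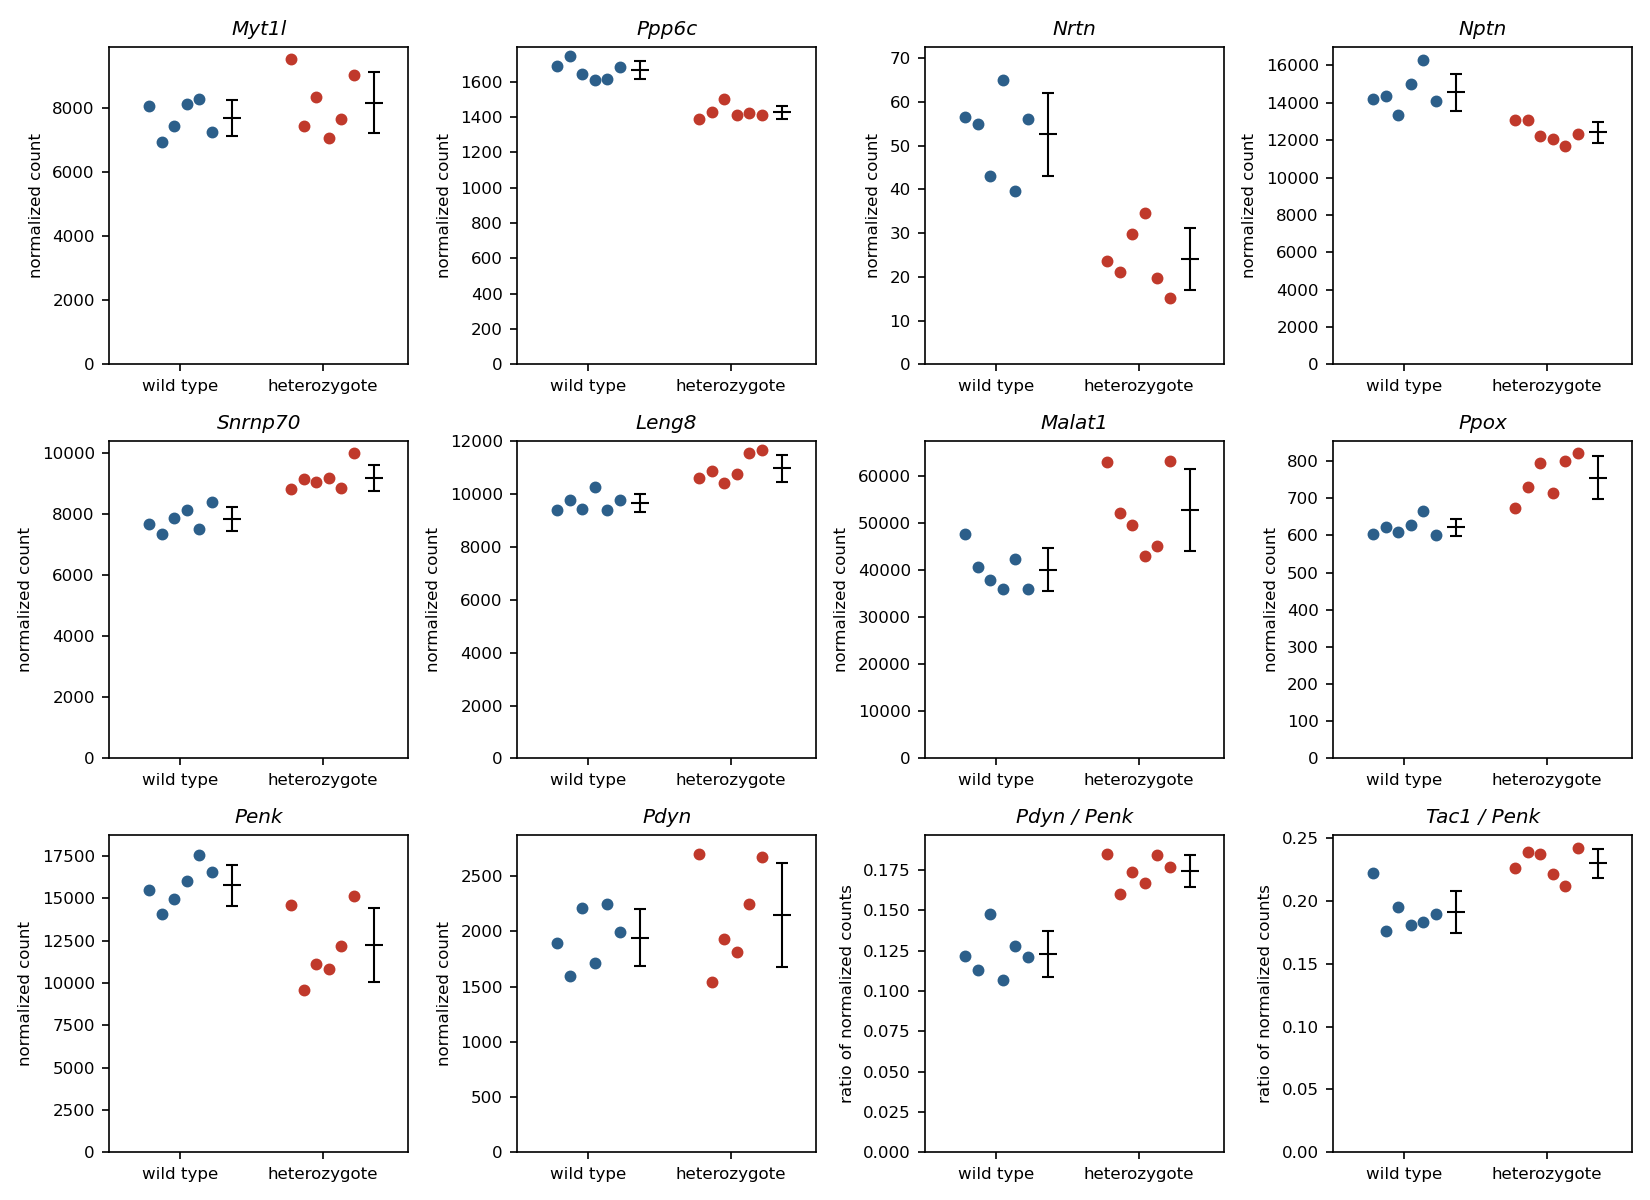
Normalized counts of 10 genes and the ratios Pdyn to Penk and Tac1 to Penk in each striatum library, by genotype, with mean ± SD (n = 6 libraries per group). The groups do not overlap in Ppp6c, Nrtn, Nptn, Snrnp70, Leng8, Ppox or the Pdyn to Penk ratio. They overlap in Myt1l, Malat1, Penk, Pdyn and the Tac1 to Penk ratio.

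Signalling genes downstream of dopamine leaned lower by small amounts. Of 36 tested members of the dopamine and DARPP-32 list, 32 lay below 0 (median -0.07, range -0.10 to -0.05), against 51.6% of all genes, and 4 had an unadjusted p under 0.05, all lower, against 3.07%. The mean log2 level of the list overlapped between the groups, which spanned 12.19 to 12.48 (heterozygotes) and 12.29 to 12.48 (wild type). Among them were Ppp1r1b, the calcineurin subunit Ppp3cb (-0.11) and the kinase Mapk3 (-0.11). This list shares Ppp1r1b and other genes with the projection neuron list, and its median was -0.03 without the 5 libraries high in cortex markers. Of 19 endocannabinoid and adenosine genes 17 lay below 0 (median -0.04, range -0.07 to -0.03), with Nt5e, which makes adenosine, at -0.22.

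Receptors and channels held single genes with larger values. The kappa opioid receptor Oprk1, on which dynorphin acts, was at -0.24 and the orphan receptor Gpr149 at -0.32, while Tacr1, the substance P receptor, was at 0.16. Of the 19 neuropeptide receptor genes in their list, 7 lay above and 12 below 0 (median -0.04). An unadjusted p under 0.05 was found in 1 higher member (2.81% of all genes) and 2 lower members (3.07%). Among 25 potassium channel genes 18 lay below 0 (median -0.04, range -0.08 to -0.01), against 51.6% of all genes. Of these, Kcna4 (-0.23), Kcnk2 (-0.22) and Kcnj2 (-0.21), of the A-type, leak and inward rectifier classes, had an unadjusted p under 0.05 (3.07% of all genes on the lower side). Cacna1i, a T-type calcium channel, was at -0.18, in a list of 22 sodium and calcium channel genes with 7 above and 15 below 0. The kainate receptor subunit Grik4 was at 0.22, in a list of 18 ionotropic glutamate receptor genes with 7 above and 11 below 0. No listed metabotropic glutamate receptor or GABA-A receptor gene had an unadjusted p under 0.05.

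Adhesion genes at synapses had 8 members with a small p on the lower side, more than the other lists. Of 33, 21 lay below 0 (median -0.03, range -0.05 to -0.01), against 51.6% of all genes, and the 8 with an unadjusted p under 0.05 were all lower (3.07% of all genes). Nptn and Nlgn1, the neuroligin of excitatory synapses, were the 2 with separate ranges (0.258% of all genes on the lower side). Nlgn1 ranged from 1897 to 2099 (median 1974) in heterozygotes and from 2100 to 2370 (median 2120) in wild type, and the log2 difference was -0.13 (SE 0.04), and -0.138 without the code 31 libraries; limma adjusted p = 0.716. Il1rapl1 lay at -0.24, Lrrtm1 and Lrrtm4 at -0.22 and -0.13, Cdh8 at -0.16, Cadm2 at -0.13 and Ncam2 at -0.09. In PFC and hippocampus 21 and 22 of the 33 lay below 0. The scaffold list of the postsynaptic density had 16 of 21 below 0 (median -0.02, range -0.08 to 0.02), but 9 of 21 without wild-type replicate 5, with Dlg1 on the other side at 0.13.

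Interneuron markers leaned higher by value. Of 9 cholinergic markers 6 lay above 0 (median 0.14, range 0.09 to 0.19), and all 9 did without the code 31 libraries, including the vesicular acetylcholine transporter Slc18a3 at 0.30 (SE 0.15) and Chat, which makes acetylcholine and whose locus contains Slc18a3, at 0.15. Of 12 GABA interneuron markers 9 lay above 0 (median 0.08, range 0.03 to 0.09), with single members from -0.25 to 0.40; the low end of the range was without wild-type replicate 5. Th, the rate-limiting enzyme of dopamine synthesis, which a class of striatal interneurons expresses, was higher by value. Th ranged from 187 to 267 (median 254) in heterozygotes and from 165 to 214 (median 185) in wild type, with heterozygote replicate 1 apart from the others. Its estimate was 0.40 (SE 0.10; 0.438 without the code 31 libraries); limma adjusted p = 0.716. The cholinergic list also had a positive median in PFC (0.11) and hippocampus (0.23).

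Glia and vessels gave small values in both directions. Oligodendrocyte and myelin genes had 13 of 15 above 0 (median 0.07, range 0.03 to 0.09), with Cldn11 at 0.10. Precursor genes had 11 of 13 above 0 (median 0.06, range -0.00391 to 0.10), with Neu4 at 0.21 and Enpp6 at 0.19. The low end of both ranges was without wild-type replicate 1, which left 6 of 13 precursor genes above 0. The precursor median was -0.003 without the code 31 libraries and -0.03 without the 5 libraries high in cortex markers. Astrocyte markers had 10 of 13 above 0 (median 0.03, range 0.02 to 0.07), with the gap junction gene Gjb6 at 0.16; their median was also -0.03 without those 5 libraries.

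Microglia markers had 15 of 16 below 0 (median -0.11, range -0.14 to -0.08). C1qb ranged from 777 to 981 (median 817) in heterozygotes and from 887 to 1051 (median 1002) in wild type, and the log2 difference was -0.23 (SE 0.07), and -0.261 without the code 31 libraries; limma adjusted p = 0.716. This complement gene and its partner C1qa (-0.16) were 2 of the 3 members with an unadjusted p under 0.05, all lower (3.07% of all genes). The median was -0.06 without the 5 libraries high in cortex markers, and 0.02 in PFC and 0.00233 in hippocampus. Endothelial and mural genes had 14 of 17 below 0 (median -0.05, range -0.10 to -0.01), with the smooth muscle gene Tagln at -0.28. Without wild-type replicate 1, the high end of that range, 10 of 17 lay below 0.

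Meningeal and subventricular genes had larger medians than most cell type lists. All 11 meningeal fibroblast markers lay below 0 (median -0.23, range -0.39 to -0.12), among them the matrix genes Dcn (-0.37) and Ogn (-0.49) and the transporter Slc6a13 (-0.62). That median was -0.12 without heterozygote replicate 1, the library low in choroid plexus, and -0.06 among the code 35 libraries. All 9 markers of subventricular progenitors and neuroblasts lay above 0 (median 0.15, range 0.10 to 0.19), among them Sox11 at 0.19 and the proliferation gene Mki67 at 0.45. That median was 0.04 among the code 35 libraries. The septum list stood near 0, and of its 8 markers Crhr2 (0.52) and Ano2 (-0.47) stood on opposite sides of 0. The part of dissection in these values was not tested.

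Genes of protein and energy supply stayed close to 0. Of 74 nuclear-encoded subunits of oxidative phosphorylation 51 lay below 0 (median -0.02, range -0.04 to -0.01), with Uqcrq at -0.23, Ndufa9 at -0.10 and Ndufv2 at -0.08. Mitochondrial import genes had 13 of 22 below 0 (median -0.04, range -0.06 to -0.02). Timm13 (-0.26), Timm10b (-0.22) and Tomm22 (-0.12) had an unadjusted p under 0.05 (3.07% of all genes on the lower side). Cytosolic ribosomal protein genes had 45 above and 37 below 0 (median 0.00314, range -0.02 to 0.03) and mitochondrial ones 29 and 48 (median -0.03, range -0.04 to -0.02). The mitochondrially encoded mt-Co3 lay at -1.0 (SE 0.40) and mt-Co2 at 0.56 (SE 0.40), and their sum was 134136 ± 29532 (SD, n = 6) against 136653 ± 22007 (SD, n = 6).

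Heat shock and unfolded protein genes had 19 of 24 below 0 (median -0.04, range -0.06 to -0.02). Hspa1b ranged from 102 to 210 (median 174) in heterozygotes and from 150 to 329 (median 288) in wild type, and the log2 difference was -0.66 (SE 0.20), and -0.774 without the code 31 libraries; limma adjusted p = 0.716. This inducible chaperone was the low end of the list, with reads that can be shared with its near-identical copy Hspa1a, and Hsp90aa1, an abundant chaperone, lay at -0.11. In PFC and hippocampus 21 and 17 of the 24 lay below 0.

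Regulators linked to autism, the circadian clock and stress hormones had medians near 0. Of 27 chromatin regulators 17 lay below 0 (median -0.03, range -0.04 to -0.01), with Chd8, a chromatin remodeller, at 0.20 and Phf21a at -0.17. The clock list had 8 above and 9 below 0 (median -0.00284, range -0.02 to 0.03), with Per2 at 0.17. Glucocorticoid response genes had 10 of 13 above 0 (median 0.06, range 0.01 to 0.09).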

How the data were processed

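The authors deposited 1 table of gene-level signal values, which the authors' name for the table calls DESeq counts and which appear in the text as normalized counts. These values are not whole numbers, and raw counts could not be recovered. Per the submitters' processing notes, Salmon 1.1.0, R 3.6.2, DESeq2 1.26.0 and GRCm38 were used, with no role or order given, and strand is not stated. Of 18548 identifiers, 18533 matched the annotation. Genes with a mean of at least 10 over the 12 libraries were tested on log2(value + 1) with limma 3.58.1 in R 4.3.3 (trend and robust options, 2-sided, threshold 0.05); interactions with region used all 34 libraries. The test was also tested on simulated data. Lists are described by counts and medians, without a test, and some share members. Tables and figures used python 3.11.15, numpy 2.4.6, pandas 2.3.3, scipy 1.17.1 and matplotlib 3.10.9. The members and lists were chosen with earlier results of these data known. Genes named were the MYT family, those with the smallest p in each direction, those with separate ranges, and, in each list, members with the smallest p or p under 0.05; not every gene so picked is reported here, and the ratios, the sums of gene pairs and several marker genes were chosen after values were seen. Alternatives covered scaling, filters, pseudocounts, covariates, left-out libraries, the replicate block and, added after seeing the data, leaving out 5 cortex-high libraries. Replicate numbers did not pair the samples. Depth limits precision only as far as the spread between libraries shows.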

Additional observations from a re-analysis of the deposited data

Results flagged for a closer look

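Within a group of 6, a library was singled out where its gap to the nearest other value was too large a share of the range, which chance gives in about 1 in 20 groups; 20 of 356 groups tested met this. Heterozygote replicate 1 stood apart in the choroid plexus list, at a mean log2 level of 5.302 against 8.767 to 9.993, in the ependyma list at 6.791 against 7.352 to 7.683, and in the ribosomal protein pseudogene list at 8.566 against 7.622 to 7.928. The same library had Hist2h2aa1 at 9.73 against 208 to 292, Th at 187 against 252 to 267, Enpp6 at 457 against 585 to 651 and Neu4 at 414 against 343 to 367. Wild-type replicate 1 had Hist2h2aa1 at 213 against 23.1 to 93.8.

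Heterozygote replicate 6 stood apart in Snrnp70, at 10009 against 8821 to 9189, in the splicing list at 11.28 against 11.18 to 11.19, in Nt5e at 520 against 338 to 397, and in Timm10b at 363 against 457 to 508. Heterozygote replicate 4 was low in Luc7l2 at 6012 against 6605 to 6851 and in Luc7l3 at 5344 against 5654 to 5775. Heterozygote replicate 3 had Ppp6c at 1499 against 1391 to 1427, nearest to wild type, and the precursor list at 9.986 against 10.04 to 10.07. Heterozygote replicate 5 had the mitochondrially encoded list at 15.79 against 15.9 to 15.97.

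Among wild types, replicate 2 was high in Pcbd2 at 155 against 107 to 120. Replicate 3 was low in Timm13 at 745 against 812 to 850 and in the oxidative phosphorylation list at 10.88 against 10.99 to 11.04.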

How the results depend on the processing

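Over the alternatives run, limma called 0 genes except in 4 cases. Without the code 31 libraries it called 1 (Hist2h2aa1, the gene whose values set these libraries apart, so this call repeats that observation), within code 35 it called 2, without heterozygote replicate 2 it called 1 (Rpl14-ps1, listed at 0 in wild type), and without the 5 cortex-high libraries, a choice made after seeing the data, it called 8 (Rpl14-ps1, Hmgb2, Ece1, Hist2h2aa1, mt-Co2, Gm9531, Rps6-ps4 and Gm28661). Leaving out single libraries thus gave 0 to 1 genes. The direction reversed for Myt1l within code 35 (-0.0117), for Drd1 without the 5 libraries (0.0467), for Pdyn within code 35 (-0.043), for Slc17a7 with the cortex covariate (0.0251) and without the 5 libraries (0.0496), and for Ttr without code 31 (0.13), within code 35 (0.309) and without heterozygote replicate 1 (0.272; -1.17 to 0.272 over single libraries left out). Of the other gene values 3644 kept their direction and their side of the threshold. Slc17a7 is 1 of the markers that set the cortex covariate and the choice of the 5 libraries, so its reversals there are not an independent check. Of the list medians 1670 moved by less than the spread between libraries and 10 by more; the 10 were indirect pathway (-0.206), neuropeptides (-0.243), metabotropic glutamate receptors (-0.143) and adhesion (-0.0745) within code 35, striosome without wild-type replicate 5 (0.0588), and, without the 5 libraries, precursors (-0.0277), proteasome (0.023), repressor partners (-0.0159), cytosolic ribosomal proteins (0.0471) and mitochondrial ribosomal proteins (0.00992). Without code 31 the sign of the median also changed for choroid plexus (0.18), septum (0.0144), precursors (-0.003), heme synthesis (0.0332), pallidum (0.0841) and immediate early genes (-0.0596). Among the lists named, single left-out libraries turned the sign of the median in 5 (heme synthesis, pallidum, cytosolic ribosomal proteins), 4 (striosome, septum), 10 (clock), 3 (immediate early, proteasome), 2 (postsynaptic density) and 1 (indirect pathway, precursors, choroid plexus) of 12 cases. The cause was not tested. Equal library totals moved the share of higher genes among those with an unadjusted p under 0.05 from 47.8% to 56.7%.

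With the replicate number as a block, 0 genes passed, 856 had an unadjusted p under 0.05, and Myt1l was at 0.0837. Deviations of libraries with the same number correlated at -0.096 to 0.07, and 0 of 6 heterozygotes correlated best with their own number.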

Other observations

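Most types of genes that do not code for protein leaned higher by value in striatum, to unlike extents. Of 14846 protein-coding genes 46.8% lay above 0 (median -0.00708), against 58.3% of 515 lincRNAs (median 0.0532), 59.1% of 301 processed transcripts (0.0463), 71.9% of 57 sense intronic transcripts (0.0757) and 69.9% of 521 TEC genes, loci still to be experimentally checked (0.0939). Antisense transcripts (54.5% of 429, 0.0305) and bidirectional promoter transcripts (51.9% of 81, 0.0104) lay nearer to the 48.4% of all genes. Processed pseudogenes stood on the other side, with 43.5% of 131 above 0 (-0.0448). Among the 515 lincRNAs 30 had an unadjusted p under 0.05 on the higher side and 16 on the lower, and among the 521 TEC genes 18 and 4. Of all genes tested, 2.81% had such a p on the higher side and 3.07% on the lower. These genes share libraries and have low counts, and no gene type was tested.

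A few lower-count genes had wide intervals beside large estimates. Alox5, a leukotriene synthesis enzyme, spanned 17.1 to 51.4 in the 6 heterozygotes against 7.65 to 20.1 in the 6 wild types, at 1.30 (SE 0.30) on the log2 scale. Casz1, a zinc-finger gene among the markers of eccentric projection neurons, was at 142 to 254 against 117 to 176, at 0.50 (SE 0.17). Of the 4 markers in that list, 2 lay above and 2 below 0. Stard5, listed with markers of the ventral striatum and islands of Calleja, was at 0.38 (SE 0.15). In its list of 8, 2 lay above and 6 below 0 (median -0.05). None of these genes passed.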
